A study of Nothobranchius furzeri with 16 samples.

Results

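The 50 most abundant genes in the adipose tissue of the turquoise killifish (Nothobranchius furzeri) held on average 58.8% of all gene signal over 16 fish. They were the 50 rows with the highest mean deposited value over the 16 fish, out of 18606 fish genes, which makes them 0.269% of the genes. The spike-in rows (ERCC, synthetic RNAs added to each library) were left out of the ranking and of every total. The genes are numbered here from 1, the most abundant, to 50. A gene's share is its value divided by the total of all fish genes in that fish, in percent. Because the members were chosen for high values, that they hold a large share follows from the choice. The results below are about how that share was divided and how it differed between groups.

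The fish were adult males of the wild-type laboratory strain GRZ-AD, housed singly, with 4 fish in each of 4 groups. Old fasted and old refed fish were 18 weeks old per the labels, and young fasted and young refed fish were 7 weeks old. Fasted fish went without food for 72 h, and refed fish were fasted for the same time and then fed for 24 h, so every fish had been fasted and no group was fed throughout. The design asks how adipose RNA differs between fasting and refeeding at each age, and between ages in each feeding state.

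Adipose tissue stores triglyceride after meals and releases fatty acids during a fast, and it also secretes hormones and carrier proteins into the blood. As in other differentiated tissues, a small set of transcripts makes up much of its messenger RNA. Shares add up to a constant, so a higher share of 1 abundant gene lowers the shares of all others even where their own amounts are equal.

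The table gives gene identifiers only. Looked up among the 38438 genes of a table that pairs identifiers with symbols, 0 were found. No gene name, function or sequence can therefore be attached to the members, and the label adipose could not be checked against marker genes of fat, blood, liver, muscle or pancreas. No correction for transcript length is stated, so the shares are shares of signal and not of molecules. In bulk tissue, fewer cells of a type and less RNA per cell cannot be told apart.

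The fish-gene total ran between 14.3 and 28.3 M units per fish (M, 1000000). A rough depth, read from the spacing of the lowest values, was 20.3 to 38.2 M reads in old fish and 40.1 to 51.5 M in young fish. Every old fish lay below every young fish, so depth and age cannot be told apart. Spike-ins made up 3.84% to 4.50% of the column total in old fasted fish, against 3.13% to 3.70% in old refed fish. In young fish they made up 3.62% to 4.59% when fasted, against 2.63% to 2.90% when refed. The part of depth and of spike-in level in the results was not tested.

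The share was unequally spread among the 50. Gene 1 (ENSNFUG00015020474) averaged 15.1% of the total over the 16 fish and was the most abundant gene in 15 of them, the exception being young refed replicate 3, where it ranked 2. Gene 2 (ENSNFUG00015000977) averaged 6.63%, gene 3 (ENSNFUG00015000788) 4.96% and gene 4 (ENSNFUG00015003267) 4.20%. Together these 4 genes passed 50% of the share of the whole set. A mean share above 1% was held by 12 members, and 18 members averaged below 0.3%.

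Membership was largely common to the groups. Of the 50 genes, 41 were also among the 50 most abundant of every group and 32 among those of every fish. Another 4 were in the leading 50 of 3 groups and 5 in those of 2 groups. At the edge of the set, gene 50 (ENSNFUG00015004940) had a mean of 31050 units and the next gene (ENSNFUG00015005415) 30988 units. Gene 50 was an uneven member, at 119985, 13862, 42558 and 44800 units in the 4 old fasted fish, and it was among the 50 leading genes in 5 of the 16 fish. No member had the same values as another row of the table.

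Members also differed in how far their share ranged over the fish. The highest share of a member was between 1.49 and 20.0 times its lowest, with a median of 4.04 times. Genes 3 (1.49-fold), 18 (1.52-fold) and 2 (1.61-fold) varied least among the first 20 members, and gene 50 varied most of all 50. Within groups, the median coefficient of variation of a member's share was 15.8% in old fasted, 24.9% in old refed, 18.4% in young fasted and 12.8% in young refed fish. The next 450 genes by abundance had medians of 10.3%, 13.6%, 9.61% and 13.2% in the same order of groups, so the members varied more from fish to fish than the genes below them in every group but young refed.

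The summed share was 57.9%, 58.6%, 53.5% and 56.8% in the 4 old fasted fish, against 48.8%, 50.7%, 45.0% and 44.9% in the 4 old refed fish. It was 66.6%, 68.6%, 68.2% and 68.2% in the 4 young fasted fish, against 67.2%, 65.8%, 57.7% and 61.6% in the 4 young refed fish. Old fasted fish did not overlap old refed fish, whereas young refed replicate 1 lay within the range of young fasted fish. Every old fish lay below every young fish in the same feeding state. The group means were 56.7% ± 2.25, 47.4% ± 2.86, 67.9% ± 0.875 and 63.1% ± 4.32 (SD, n = 4 each) in old fasted, old refed, young fasted and young refed fish.

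**Figure D1:**
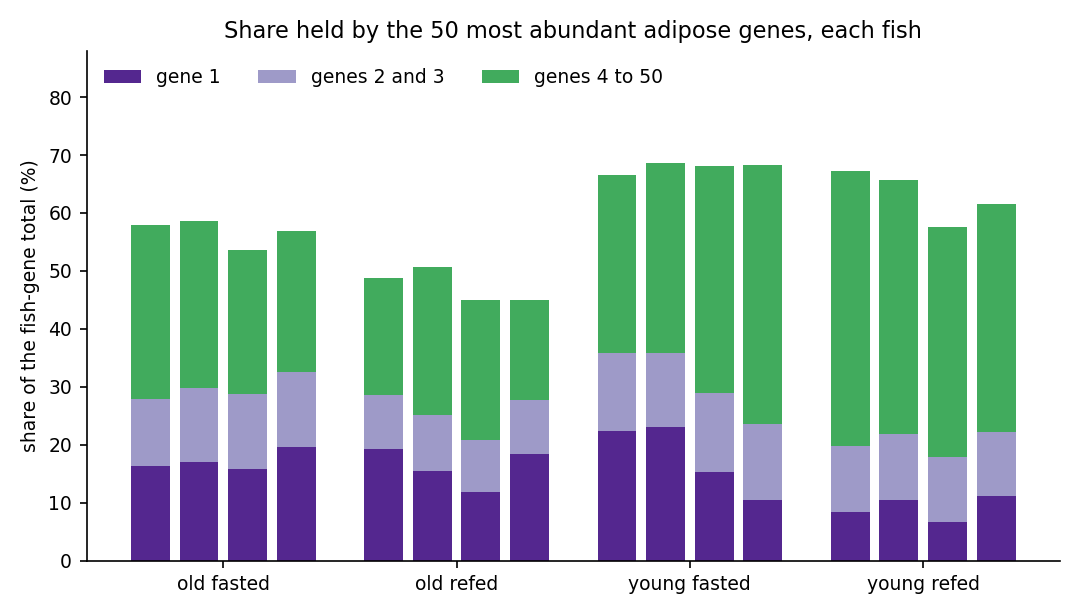
Stacked bars give, for each of the 16 fish, the percent of the fish-gene total held by gene 1, by genes 2 and 3 and by genes 4 to 50, with fish grouped by age and feeding state. The bars reach 44.9% to 50.7% in old refed fish and 66.6% to 68.6% in young fasted fish, and the part of genes 4 to 50 is shorter in every old fish than in any young fish.

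The difference of means was 9.38 percentage points for old fasted minus old refed fish and 4.82 points for young fasted minus young refed fish. For old minus young fish it was -11.2 points when fasted and -15.7 points when refed. These are descriptions with no test, since the members were chosen from the same values. The difference of each member's mean share adds up exactly to these sums, which allows the shift to be divided among genes.

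In deposited units, the amount held by the set differed far more between groups than that of the rest of the table. The 50 genes summed to 11.7 M units in old fasted and 7.56 M in old refed fish, and to 18.4 M in young fasted and 15.4 M in young refed fish. The other 18556 genes summed to 8.86, 8.35, 8.69 and 8.89 M units in the same groups. In these units, the differences in the fish-gene total were therefore mostly differences in these 50 genes. The deposited scaling, under which the median gene lay between 155 and 168 units in every fish, also sets how constant the remaining genes look. Scaled to the spike-ins, the median log2 difference for old fasted against old refed fish was 0.02 for the members and -0.67 for all genes. For young fasted against young refed fish these medians were -0.75 and -0.60. For old against young fish they were -0.53 and 0.32 when fasted, and -1.45 and 0.31 when refed.

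**Figure D2:**
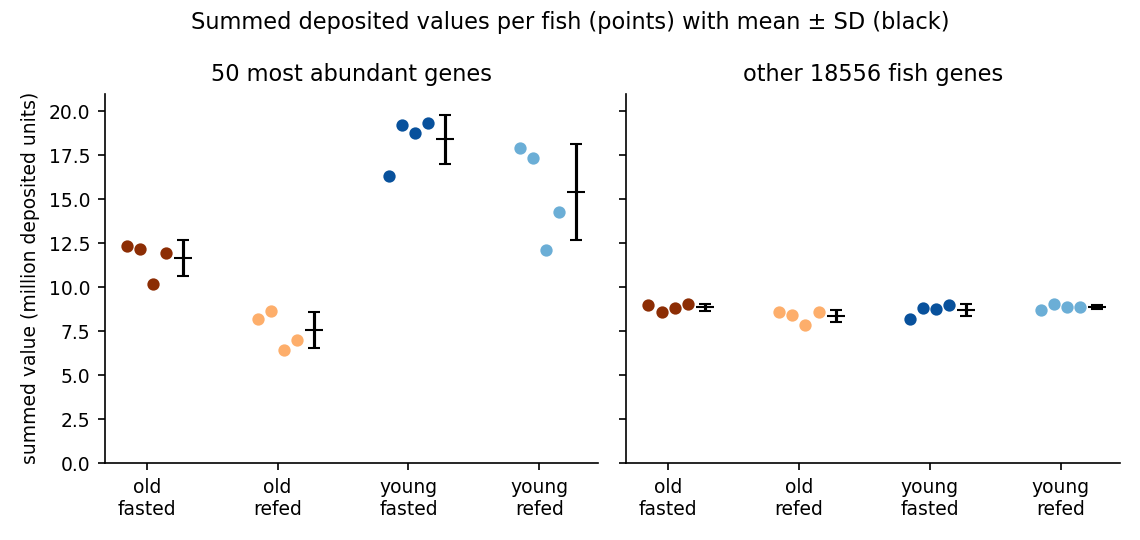
Points give the summed deposited value of each fish in M units, for the 50 most abundant genes (left) and for the other 18556 fish genes (right), with the group mean ± SD in black (n = 4 each). The amount of the 50 genes is 7.56 M on average in old refed fish and 18.4 M in young fasted fish, while the averages of the other genes lie between 8.35 and 8.89 M.

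Tests of single members used the share in parts per 1000000 on a log2 scale with 1 added, in a limma fit of all 18606 genes and 16 fish, and a member counted as called where its p, adjusted over all genes by Benjamini-Hochberg, was under 0.05. Since shares add up to a constant, the median gene of the table itself moved on this scale. Its log2 difference was -0.30 for old fasted against old refed and -0.04 for young fasted against young refed fish, and 0.31 and 0.50 for old against young fish when fasted and when refed. On the deposited scale the same 4 medians were -0.02, 0.10, -0.00 and 0.04. Each direction below is a direction of the share unless the deposited scale is named.

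Between fasted and refed young fish, gene 1 accounted for more than the whole shift. Its share was 22.3%, 23.1%, 15.3% and 10.5% in the 4 young fasted fish, against 8.34%, 10.4%, 6.68% and 11.2% in the 4 young refed fish. Young fasted replicates 1 and 2 were high, and replicate 4 lay within the range of refed fish. The means were 17.8% ± 5.99 and 9.16% ± 2.04 (SD, n = 4 each), a difference of 8.66 points where the whole set differed by 4.82 points. The log2 difference was 0.92 (SE 0.32, limma adjusted p = 0.0310), and the exact two-sided permutation test over fish gave p = 0.0571. This call was lost when any of 5 of the 8 fish was left out (limma adjusted p between 0.0108 and 0.129 over the 8). Those 5 were young fasted replicates 1 and 2 and young refed replicates 1, 2 and 3. It was also lost on the deposited scale, where the log2 difference was 1.08 (limma adjusted p = 0.109).

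Genes 2 and 3 added 1.97 points in young fish. Gene 2 was at 7.78%, 7.30%, 7.82% and 7.65% in young fasted fish, against 6.94%, 6.72%, 6.92% and 6.64% in young refed fish. Gene 3 was at 5.79%, 5.39%, 5.82% and 5.41% in young fasted fish, against 4.49%, 4.66%, 4.29% and 4.40% in young refed fish. Neither gene overlapped between the groups, as held for 12.5% of all genes in this direction, and the exact two-sided permutation test gave p = 0.0286 for each, which is the smallest p that 4 against 4 fish can give. Neither passed limma's threshold. Gene 3 had a log2 difference of 0.33 (limma adjusted p = 0.177), which turned to -0.22 when values were scaled to the spike-ins (limma adjusted p = 0.452). On the spike-in scale the median of all genes in this comparison was -0.60. The limma fit lets the prior spread depend on abundance, and without that dependence gene 3 had a limma adjusted p of 0.00418.

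The other members lowered the sum in young fish. Of the 50 genes, 13 had a higher mean share in fasted fish, together 11.2 points, and 37 a lower one, together -6.42 points. Gene 1 made up 77.0% of the positive part. The negative part was spread, with 7 genes needed for 50% of it and 20 genes for 90%. Its first 2 members were gene 4 at -0.727 points and gene 10 (ENSNFUG00015024316) at -0.583 points, neither of which passed the threshold. Gene 4 was at 4.41%, 4.28%, 5.43% and 6.72% in young fasted fish, against 6.87%, 6.34%, 5.20% and 5.33% in young refed fish, and these ranges overlapped widely. Gene 10 was at 1.48%, 1.59%, 1.94% and 2.09% in young fasted fish, against 2.76%, 2.33%, 2.19% and 2.15% in young refed fish, without overlap, as held for 26.5% of all genes in this direction (log2 difference -0.42, limma adjusted p = 0.117, exact two-sided permutation p = 0.0286).

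In young fish, genes 1 and 18 were called higher in share when fasted, beside 12.4% of all genes, and genes 27, 35, 43 and 48 were called lower, beside 29.0% of all genes. Gene 27 had the largest log2 difference of the lower ones at -0.99 (SE 0.16, limma adjusted p = 0.000112). Its share was 0.200%, 0.215%, 0.209% and 0.193% in young fasted fish, against 0.317%, 0.387%, 0.534% and 0.412% in young refed fish. It was called lower on the deposited scale too, as the only member so called there (beside 26.0% of all genes), while 2 members, genes 18 and 47, were called higher there (beside 27.1%). Scaled to the spike-ins, 36 members were called lower in young fasted fish, beside 62.2% of all genes. The median log2 difference of the 50 genes was -0.19 on the share scale and -0.03 on the deposited scale.

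The 4 young fasted fish differed from each other in the make-up of the share far more than in its sum. Their sums lay within 66.6% and 68.6%. Replicates 1 and 2 had 22.3% and 23.1% in gene 1 with 30.7% and 32.8% in genes 4 to 50, whereas replicate 4 had 10.5% in gene 1 with 44.6% in genes 4 to 50. Replicate 3 lay between them, with 15.3% and 39.2%. Genes 2 and 3 varied little in these fish, between 7.30% and 7.82% for gene 2 and between 5.39% and 5.82% for gene 3.

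With gene 1 set aside in the members and in the total, young fasted minus young refed fish differed by 1.39 points, in place of 4.82. This alternative and the next were chosen after the data were seen. With gene 1 taken from the members but kept in the total, the difference was -3.84 points, so the sign depended on whether gene 1 stayed in the total. In deposited amounts gene 1 made up 85.0% of the difference in summed units between the young groups and genes 2 and 3 made up 28.2%, so gene 1 passed the whole difference in shares but not in amounts. Genes 4 to 50 together differed by -5.81 points.

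**Figure D3:**
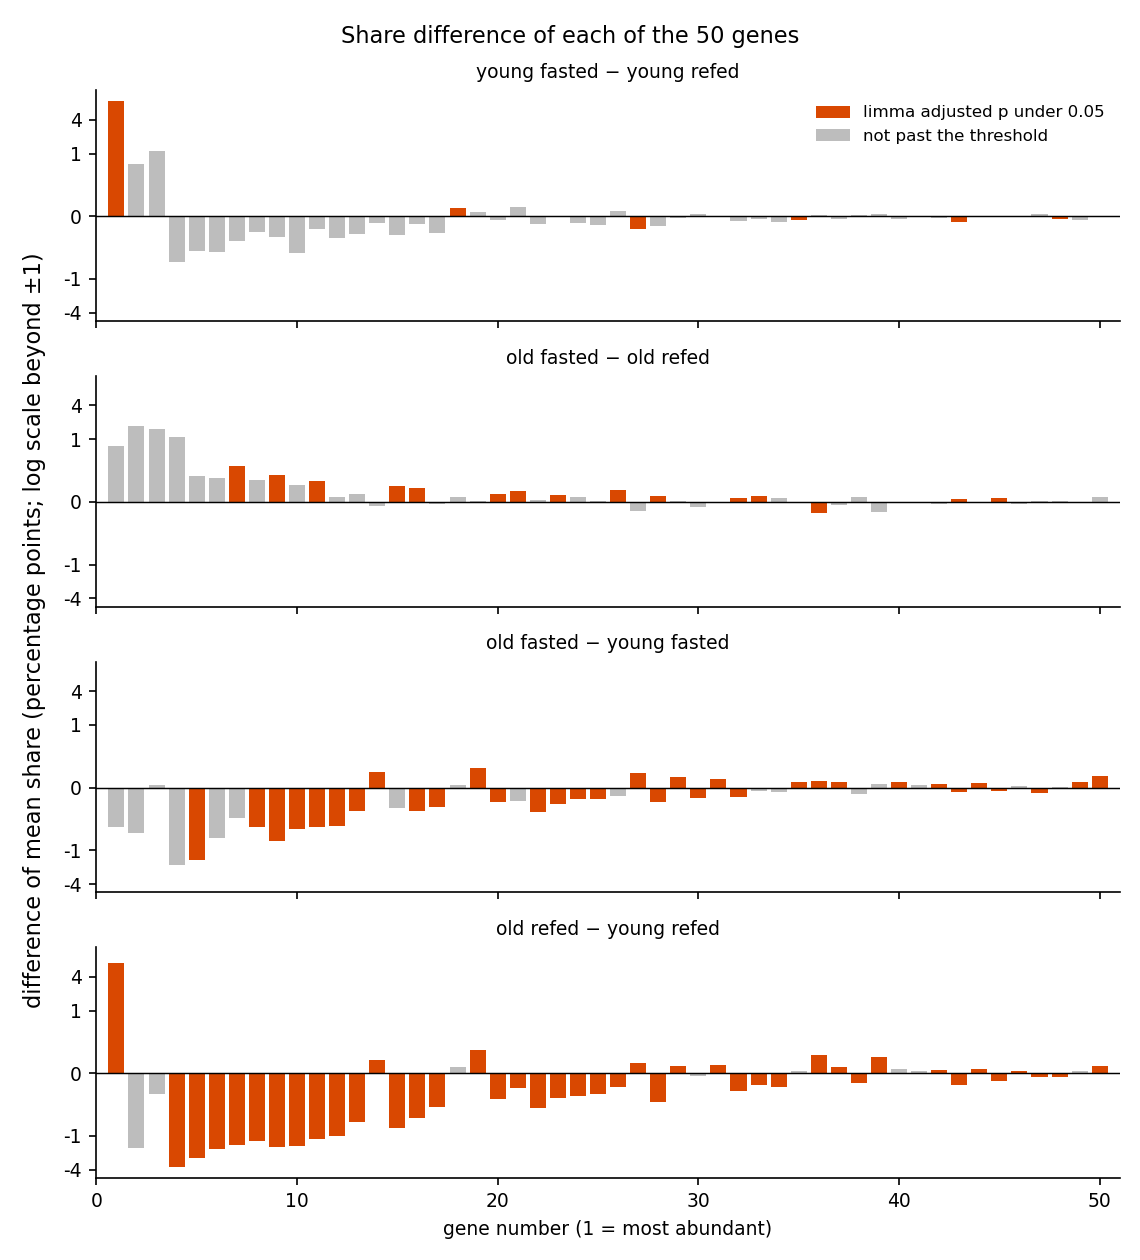
Bars give the difference of mean share of each of the 50 genes in percentage points, in order of abundance, for 4 comparisons (fasted minus refed within an age, old minus young within a feeding state). The vertical axis is linear within ±1 and logarithmic beyond, and coloured bars passed limma's threshold. Gene 1 stands out in the young feeding comparison (8.66 points) and the refed age comparison (7.12 points), while genes 4 to 13 all lie below 0 in both age comparisons.

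In old fish the shift with feeding was spread over many members. Of the 50 genes, 39 had a higher mean share in fasted than in refed fish, together 10.2 points, and 11 a lower one, together -0.802 points. It took 4 genes to reach 50% and 18 genes to reach 90% of the positive part, where gene 1 alone had passed 50% in young fish. Gene 1 gave 0.901 points. Its share was 16.3%, 17.1%, 15.7% and 19.5% in old fasted fish, against 19.3%, 15.5%, 11.9% and 18.5% in old refed fish, and these ranges overlapped (log2 difference 0.10, limma adjusted p = 0.816).

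Genes 2 and 3 gave the most in old fish. Gene 2 was at 6.58%, 7.00%, 7.07% and 7.01% in old fasted fish, against 5.24%, 5.34%, 4.86% and 5.23% in old refed fish, a difference of 1.75 points. Gene 3 was at 4.96%, 5.69%, 5.89% and 6.06% in old fasted fish, against 4.12%, 4.27%, 4.07% and 4.07% in old refed fish, a difference of 1.52 points. Every fasted fish was above every refed fish for both genes, as held for 1.82% of all genes, and the exact two-sided permutation p was 0.0286 for each. Their log2 differences were 0.42 (SE 0.20) and 0.45 (SE 0.19), with limma adjusted p of 0.0886 and 0.0584, so neither passed the threshold. Without the dependence on abundance the limma adjusted p was 0.00044 for gene 2 and 0.000603 for gene 3.

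Called higher in share in old fish when fasted were 14 members, beside 2.55% of all genes. They were genes 7, 9, 11, 15, 16, 20, 21, 23, 26, 28, 32, 33, 43 and 45, with log2 differences between 0.45 and 1.07. Of these, 7 overlapped between the groups and 7 did not, where 1.82% of all genes lay without overlap in this direction. Genes 28, 43 and 45 were outside the 50 most abundant genes of old refed fish, so they are members through groups where they are higher. The median log2 difference of the 14 was 0.70. Gene 45, above that median and without overlap, was at 0.146%, 0.196%, 0.140% and 0.131% in old fasted fish, against 0.0734%, 0.113%, 0.0870% and 0.0586% in old refed fish (log2 difference 0.91, limma adjusted p = 0.00116). It was singled out after its values were seen. The count was 9 without old fasted replicate 2 or without old refed replicate 4. With deposited values 25 members were called higher, all 14 among them, beside 12.1% of all genes, and limma called 0 lower, beside 13.9%, with 0 at an unadjusted p under 0.05. Scaled to the spike-ins the count was 2, beside 0.957% of all genes, with 8 members called lower, beside 74.8%. The members' median log2 difference was 0.32 on the share scale, 0.69 on the deposited scale and 0.02 on the spike-in scale. The median of all genes was -0.30, -0.02 and -0.67 on the same scales.

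Gene 36 (ENSNFUG00015002259) was the 1 member called lower in share in old fish when fasted, beside 44.7% of all genes. Its share was 0.336%, 0.297%, 0.256% and 0.231% in old fasted fish, against 0.296%, 0.470%, 0.751% and 0.311% in old refed fish. The ranges overlapped, and old refed replicate 3 was the highest. The log2 difference was -0.61 (SE 0.22, limma adjusted p = 0.0328), and it was no longer called without old fasted replicate 3 or 4 or without old refed replicate 2 or 3, with limma adjusted p up to 0.118. Gene 39 (ENSNFUG00015011347) followed on the negative side, at -0.154 points. It was at 0.275%, 0.258%, 0.391% and 0.0722% in old fasted fish, against 0.202%, 0.304%, 0.682% and 0.425% in old refed fish, and did not pass the threshold (log2 difference -0.79, limma adjusted p = 0.129). It did pass without old fasted replicate 3 (limma adjusted p = 0.0477) or without old refed replicate 1 (limma adjusted p = 0.0467). The same old refed fish, replicate 3, was highest for both genes. That fish also had the lowest rough depth of the 16.

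Between old and young fasted fish, the lower summed share lay mostly in genes 4 to 13 and other members of lower rank. Mean shares were higher in old fasted fish for 19 members, together 2.12 points, and lower for 31, together -13.3 points. Gene 4 was at 3.77%, 3.81%, 3.03% and 2.91% in old fasted fish, against 4.41%, 4.28%, 5.43% and 6.72% in young fasted fish, a difference of -1.83 points. The groups did not overlap, as held for 0.860% of all genes in this direction (exact two-sided permutation p = 0.0286), while limma gave a log2 difference of -0.61 (SE 0.25, adjusted p = 0.0551). Gene 5 (ENSNFUG00015003379) was at 2.10%, 1.93%, 1.52% and 1.52% in old fasted fish, against 2.59%, 2.79%, 3.38% and 4.20% in young fasted fish. Its difference was -1.47 points (log2 difference -0.86, SE 0.24, limma adjusted p = 0.00897), and every old fish was below every young fish.

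In share points, the first 3 genes took little part in the age difference of fasted fish. Gene 1 differed by -0.634 points (log2 difference 0.01, limma adjusted p = 0.978), where mean share and mean log2 share had opposite signs. Genes 2 and 3 together differed by -0.673 points, with gene 2 lower and gene 3 higher in old fish. Gene 2 had means of 6.92% in old and 7.64% in young fasted fish. It did not overlap, as held for 0.860% of all genes in this direction (exact two-sided permutation p = 0.0286), though limma did not call it. In deposited amounts gene 1 made up 18.6% and genes 2 and 3 made up 14.9% of the difference in summed units between these groups. With gene 1 set aside in the members and the total, the summed share differed by -13.0 points, in place of -11.2.

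Called lower in share in old fasted fish were 20 members, beside 0.817% of all genes, and called higher were 13, beside 44.9%. The lower ones had log2 differences between -1.69 and -0.47, and gene 22 had the lowest, at means of 0.179% ± 0.0515 and 0.575% ± 0.132 (SD, n = 4 each) in old and young fasted fish. The count of lower members was 13 without old fasted replicate 3 or without young fasted replicate 4. Genes 43 and 47, called lower, ranked 57 and 63 in old fasted fish, and genes 49 and 50, called higher, ranked 60 and 72 in young fasted fish. These are members through groups where they are higher. With the 50 genes ranked on the refed fish alone, 20 were called lower and 12 higher. With deposited values 22 members were called lower, beside 3.98% of all genes, and gene 27 alone was called higher, beside 5.57%. The higher calls on the share scale thus depended on the scale of measurement.

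Among the members higher in old fasted fish, gene 19 (ENSNFUG00015003210) had the largest difference in points. It was at 0.619%, 0.636%, 0.814% and 0.774% in old fasted fish, against 0.418%, 0.437%, 0.417% and 0.306% in young fasted fish, a difference of 0.316 points with no overlap, as held for 45.4% of all genes in this direction (log2 difference 0.85, SE 0.20, limma adjusted p = 0.00317). Gene 14 (ENSNFUG00015000017) was at 0.921%, 0.899%, 0.972% and 1.01% in old fasted fish, against 0.662%, 0.690%, 0.706% and 0.728% in young fasted fish. Its difference was 0.253 points (log2 difference 0.45, SE 0.14, limma adjusted p = 0.0177). Neither was called with deposited values, with log2 differences of 0.45 for gene 19 (limma adjusted p = 0.179) and 0.05 for gene 14 (limma adjusted p = 0.882).

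Between old and young refed fish the summed share had its largest difference of the 4 comparisons, as a sum of 9.33 points from 18 members and -25.0 points from 32 members. Gene 1 was higher, at the values given above, with a mean of 16.3% ± 3.34 in old refed and 9.16% ± 2.04 in young refed fish (SD, n = 4 each). Its difference was 7.12 points, and every old refed fish was above every young refed fish, as held for 55.5% of all genes (exact two-sided permutation p = 0.0286). The log2 difference was 0.83 (SE 0.32, limma adjusted p = 0.0293), and gene 1 was no longer called without old refed replicate 1 or 4 or without young refed replicate 1, 2 or 3, with limma adjusted p up to 0.115. On the deposited scale the log2 difference was 0.23 (limma adjusted p = 0.793), so gene 1 held a larger part of a smaller total.

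**Figure D4:**
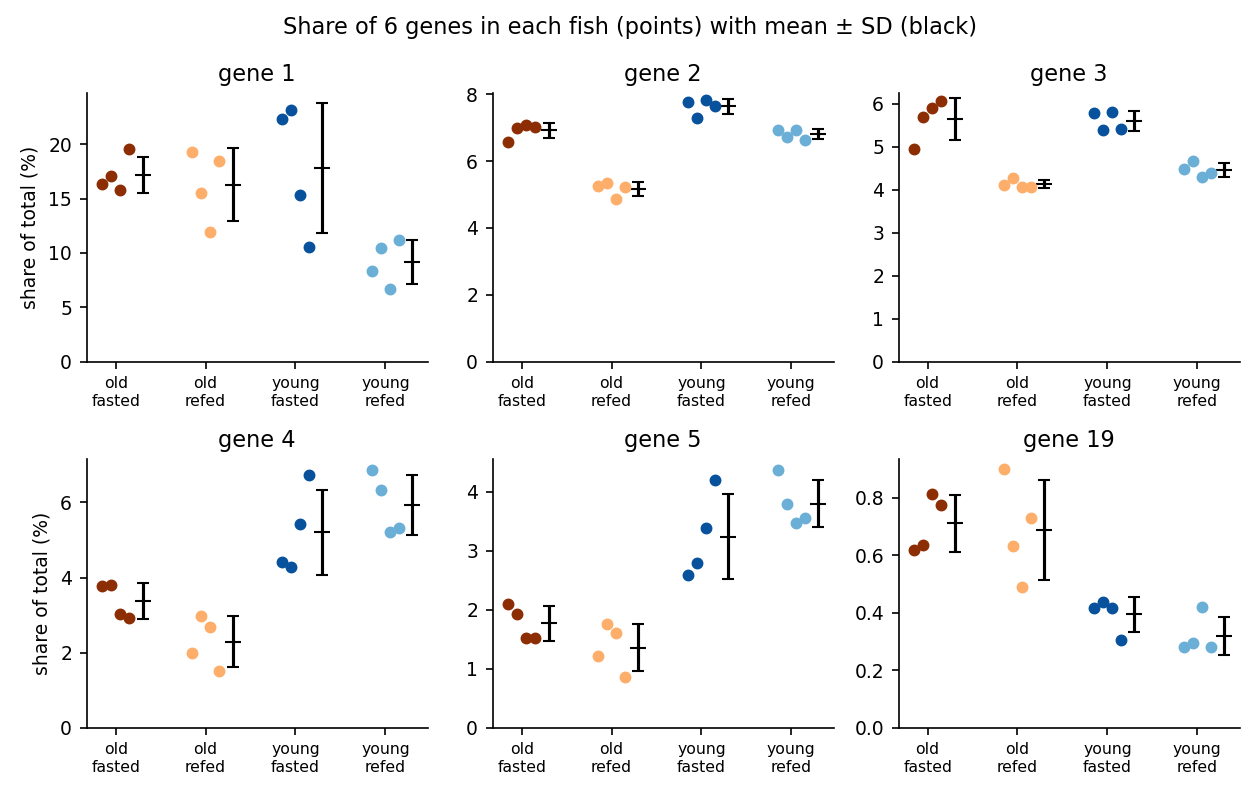
Points give the share of the fish-gene total in each fish, in percent, for genes 1, 2, 3, 4, 5 and 19, with the group mean ± SD in black (n = 4 each) and vertical axes that start at 0 and differ between panels. Genes 2 and 3 are higher in fasted fish at both ages without overlap, genes 4 and 5 are lower and gene 19 is higher in old than in young fish in both feeding states, and gene 1 has its lowest mean in young refed fish.

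Genes 4 and 5 had the largest negative differences. Gene 4 was at 1.99%, 2.99%, 2.69% and 1.51% in old refed fish, against the 5.20% to 6.87% of young refed fish given above, a difference of -3.64 points (log2 difference -1.41, SE 0.25, limma adjusted p = 0.000171). Gene 5 was at 1.21%, 1.75%, 1.60% and 0.863% in old refed fish, against 4.37%, 3.80%, 3.47% and 3.56% in young refed fish. Its difference was -2.44 points (log2 difference -1.53, SE 0.24, limma adjusted p = 6.46e-05). Neither gene overlapped between the ages, as held for 1.39% of all genes in this direction, and both were also called lower on the deposited scale, with log2 differences of -2.02 and -2.14.

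Gene 19 was again higher in old fish. It was at 0.901%, 0.631%, 0.489% and 0.731% in old refed fish, against 0.282%, 0.294%, 0.418% and 0.281% in young refed fish, without overlap, as held for 55.5% of all genes in this direction. The difference was 0.369 points (log2 difference 1.09, SE 0.20, limma adjusted p = 0.000188). On the deposited scale the log2 difference was 0.49 (limma adjusted p = 0.0945).

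Called lower in share in old refed fish were 29 members, beside 1.92% of all genes, and called higher were 13, beside 71.3%. The 29 were genes 4 to 13, 15 to 17, 20 to 26, 28, 32 to 34, 38, 43, 45, 47 and 48, with log2 differences between -2.31 and -0.52. All 29 were also called lower on the deposited scale, where 32 members were called lower, beside 15.1% of all genes. The count of 29 was the same with each of the 8 fish left out in turn. Of the 13 higher members, gene 36 alone was called higher on the deposited scale, where 13.0% of all genes were so called and where 5 of the 50 members had a positive difference. The count of higher members was 8 without old refed replicate 4. Of the 29 lower members, genes 28, 38, 43, 45, 47 and 48 ranked 62, 68, 92, 95, 72 and 59 in old refed fish. Of the higher ones, genes 39 and 50 ranked 53 and 72 in young refed fish. These are members through groups where they are higher, so the counts are not independent of the choice of members. With the 50 genes ranked on the fasted fish alone, 30 were called lower and 13 higher.

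The age calls of fasted and refed fish came from different animals. Of the 20 members lower in old fasted fish, 19 (95.0%) were among the 29 lower in old refed fish, which is 65.5% of those 29. Of the 50 members themselves, 29 were called lower and 13 higher in old refed fish, which is the nearer base for these overlaps. Of all genes, 1.92% were called lower in old refed fish. Of the 13 members higher in old fasted fish, 10 (76.9%) were among the 13 higher in old refed fish, where 71.3% of all genes were called higher. How many of all genes were on both lists was not counted. Genes 43 and 47 were among the 50 most abundant only of the young groups and gene 50 only of the old groups, which favours shared directions. Gene 30 was lower in old fish only in the fasted list. These are counts of shared calls, and a member on only 1 of the lists is not shown to differ between feeding states.

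The 29 members lower in old refed fish together held 20.5% ± 3.06 of the total in old fasted, 14.7% ± 4.19 in old refed, 32.2% ± 6.35 in young fasted and 37.7% ± 4.20 in young refed fish (SD, n = 4 each). The set was chosen on the refed age difference, so that difference is no result. It differed by 5.76 points between old fasted and old refed fish, with 28 of the 29 members positive, and by -5.52 points between young fasted and young refed fish, with 25 of the 29 negative. Both of these differences use a refed group that chose the set. Old and young fasted fish differed by -11.7 points in this set, with 28 of the 29 members negative. The whole 50 differed by -11.2 points there. The fasted age difference did not choose the 29, but the fasted fish helped to rank the 50. Genes 43, 47 and 48 were among the 50 most abundant only of the young groups, so they entered largely through fish where they are high. This difference is therefore not independent of the choice. In deposited amounts the set summed to 4.21, 2.34, 8.78 and 9.25 M units in the same order of groups.

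Within a fish, most of these 29 members stood in a narrower range of proportions to gene 4 than the other members did. Ratios between genes within a fish do not depend on the scaling if each fish has 1 factor for all genes. The deposited scaling was not given in the sources used here, so this is assumed. Gene 4, the most abundant of the 29, was taken as the base after its values were seen. Its own value varied 8.06-fold over the 16 fish. Over the same fish, the ratio to gene 4 stayed within 2-fold from lowest to highest for 20 of the other 49 members, which is 40.8%, with spreads of 1.28-fold to 1.87-fold. All 20 were among the 29. Of the next 450 genes by abundance, 7 (1.56%) stayed within 2-fold. The 28 others of the 29 had a median spread of 1.58-fold and a highest of 3.82-fold, against a median of 7.77-fold and a range of 3.43-fold to 30.8-fold for the remaining members. The base is itself 1 of the 29, which were chosen for a shared direction, and this favours ratios close to it. Relative to gene 1, which is outside the 29, some of the remaining members had narrower spreads than relative to gene 4. Gene 19 had 3.35-fold against 11.8-fold, and gene 31 had 4.18-fold against 6.83-fold. Genes 2 (3.81-fold against 3.43-fold) and 30 (4.80-fold against 3.77-fold) had wider ones. Other bases were not measured, so whether narrow proportions are particular to the 29 was not tested. This is a description of these fish with no test.

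**Figure D5:**
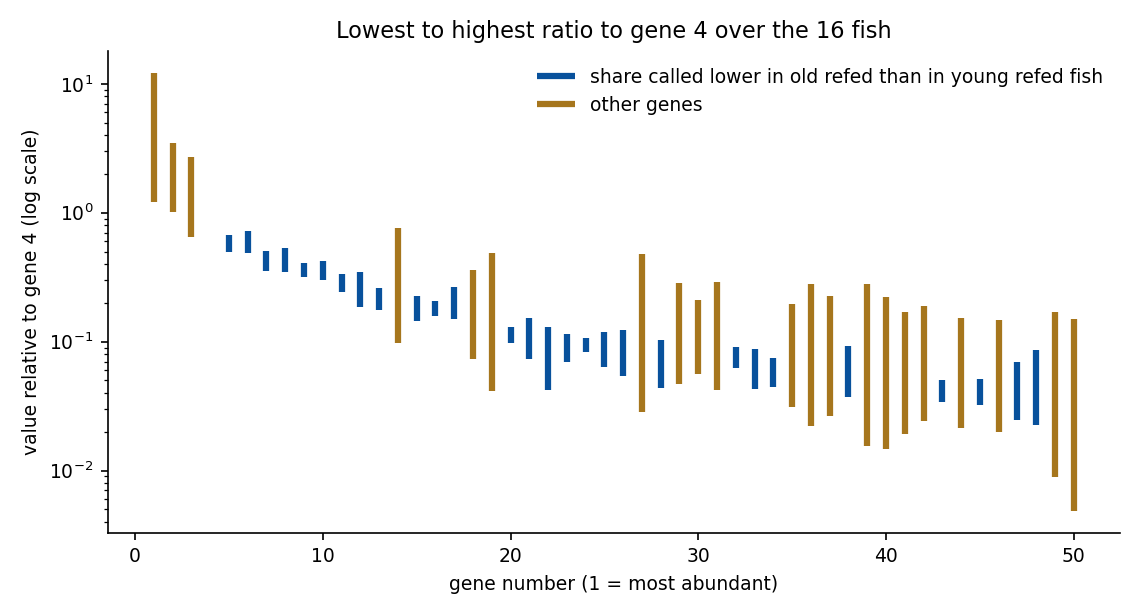
Vertical lines run from the lowest to the highest ratio of each gene's value to that of gene 4 over the 16 fish, on a logarithmic axis, in order of abundance, for the members called lower in share in old refed than in young refed fish and for the other members. Lines of the first kind are short, with spreads of at most 3.82-fold, and those of the other genes are long, with spreads of 3.43-fold to 30.8-fold.

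In 24 of the 50 members, the mean share was highest in young refed and lowest in old refed fish, and genes 6 to 12 are examples. How many of all genes had this order was not counted. A call of lower share in old refed fish already favours it. Gene 6 averaged 1.90%, 1.52%, 2.71% and 3.27% in old fasted, old refed, young fasted and young refed fish, and gene 7 averaged 1.61%, 1.03%, 2.10% and 2.49%. Gene 8 averaged 1.43%, 1.07%, 2.06% and 2.31%, and gene 9 averaged 1.20%, 0.773%, 2.06% and 2.38%. In all 4 of them young refed fish were highest and old refed fish lowest. Gene 11 averaged 0.976%, 0.636%, 1.60% and 1.79%, and gene 12 averaged 0.790%, 0.713%, 1.40% and 1.74%. The order of the group means was the same there. Old fasted and old refed fish overlapped in all 6 of these genes, of which 7, 9 and 11 were called.

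The other 26 members had other orders of their means, some of the 29 among them. Gene 21 averaged 0.431% ± 0.0761 in old fasted, 0.257% ± 0.113 in old refed, 0.645% ± 0.120 in young fasted and 0.498% ± 0.0311 in young refed fish (SD, n = 4 each), so young fasted fish had its highest mean. Gene 26 had means of 0.360%, 0.175%, 0.492% and 0.404% in the same order. Gene 18 averaged 0.651%, 0.567%, 0.602% and 0.472%, higher in fasted than in refed fish without overlap at both ages, though in old fish it did not pass the threshold on the share scale (log2 difference 0.20, limma adjusted p = 0.167). No overlap in this direction held for 1.82% of all genes in old and 12.5% in young fish. On the deposited scale gene 18 was called higher in fasted fish at both ages, with log2 differences of 0.57 (limma adjusted p = 0.00885) in old and 0.51 (limma adjusted p = 0.00667) in young fish.

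Apart from gene 1 in refed fish, the members whose share was called higher in old fish came no earlier in the order than gene 14. Gene 27 averaged 0.435% ± 0.0373 in old fasted, 0.582% ± 0.109 in old refed, 0.204% ± 0.00995 in young fasted and 0.412% ± 0.0904 in young refed fish (SD, n = 4 each). Its mean was lower when fasted at both ages, with a call in young fish only (log2 difference -0.40, limma adjusted p = 0.0512 in old fish). Fasted and refed fish did not overlap at either age, as held for 39.6% of all genes in old and 26.5% in young fish in this direction. Without limma's dependence on abundance, gene 27 was called lower in old fasted fish too, beside 8277 of all 18606 genes. Gene 29 averaged 0.462%, 0.440%, 0.295% and 0.321%, and gene 31 averaged 0.426%, 0.424%, 0.284% and 0.289%. Both shares thus differed by age and were nearly equal in the feeding states. The median gene's share was itself higher with age, by a log2 difference of 0.31 when fasted and 0.50 when refed. With deposited values limma called neither gene between the ages. It did call gene 29 there for feeding at the older age, with fasting higher, beside 12.1% of all genes. Together the 18 members outside gene 1, genes 2 and 3 and the 29 added 1.90 points in old against young fasted fish and 2.16 points in old against young refed fish.

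The difference between the feeding shifts of the ages was 4.56 points for the summed share, old minus young. Gene 1 gave -7.76 points of it and genes 4 to 50 gave 11.0 points, so the sum hid terms of opposite sign. With gene 1 set aside in the members and the total it was 9.29 points. The largest positive terms were gene 4 at 1.81 points (log2 difference 0.80, limma adjusted p = 0.136) and gene 5 at 0.972 points (0.67, adjusted p = 0.183). The largest negative terms were gene 1 (log2 difference -0.82, limma adjusted p = 0.225) and gene 39 at -0.200 points (-1.24, adjusted p = 0.165). None of these 4 passed the threshold, so a different response of gene 1 in old and young fish was not shown.

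Genes 15, 28, 43, 45 and 48 were called for a higher fasting effect in old than in young fish, beside 1.41% of all genes. Genes 28, 43, 45 and 48 ranked 62, 92, 95 and 59 in old refed fish, outside the 50 most abundant there. They are members through groups where they are higher, and a low old refed share raises this effect. The calls are therefore not independent of the choice of members. Gene 28 had the lowest adjusted p of the 5 (log2 difference 1.25, SE 0.28, limma adjusted p = 0.0242). It was at 0.232%, 0.207%, 0.250% and 0.169% in old fasted fish, against 0.104%, 0.130%, 0.157% and 0.0967% in old refed fish. In young fish it was at 0.342%, 0.388%, 0.463% and 0.584% when fasted, against 0.690%, 0.655%, 0.528% and 0.488% when refed. Old fasted fish were all above old refed fish, as held for 1.82% of all genes, and young fasted fish overlapped young refed fish with a lower mean. The 5 calls became 0 without old fasted replicate 1 or without young fasted replicate 1, and 12 without old refed replicate 2. With deposited values 9 members were called, beside 9.77% of all genes. For a lower effect in old fish limma called 0 members, beside 4.98% of all genes, with 2 at an unadjusted p under 0.05 and, on the deposited scale, 0 called, beside 4.37%, and 0 at an unadjusted p under 0.05.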

How the data were processed

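RNA-seq of adipose tissue from 16 male killifish was used, 4 per group, with columns matched to fish by name. The authors removed ribosomal and transfer RNA reads, pseudo-aligned the remaining reads with kallisto 0.45.0 (Nfu_20140520) and compared groups in DESeq2 1.24.0. What they deposited is a normalized signal for each gene, not whole numbers, whose scaling was not given in the sources used here. In each fish a fixed step separates the lowest values, and 62.7% to 78.6% of these lay within 0.1 of whole steps. Read numbers could not be recovered from this, so the depth is rough and counting intervals are not given.

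Shares were computed over 18606 fish genes, without 74 ERCC rows. A total of 268 rows elsewhere in the table form 32 sets with identical values. Shares in parts per 1000000 entered limma 3.58.1 (R 4.3.3) as log2(share + 1), for every fish gene and all 16 fish in 1 fit of 4 groups, by eBayes with an abundance trend and Benjamini-Hochberg adjustment over all genes and a threshold of 0.05. The pseudocount of 1 understates changes of low genes. The design written first foresaw this fit for a table without counts. Exact two-sided permutation tests over fish used scipy 1.17.1, and plots matplotlib 3.10.9. The fit was tested on simulated data. Fish of a group were separate animals, RNA was extracted from all of them together, and a sequencing batch is not named in the labels.

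In each comparison, the 2 members with the highest and the 2 with the lowest difference of mean share were named by identifier, beside genes 1 to 3 and the genes at the edge of the set. The members, lists and rules were chosen with earlier results of these data known. Lists of markers and pathways needed symbols and were not applied. Alternatives were the 10, 25 or 100 first genes, other rankings, the deposited and ERCC scales, pseudocounts of 0.1 and 5, a filter of 10 parts per 1000000 in 4 fish, fits of 8 fish, the replicate number as a block, an adjusted p under 0.01, identical rows counted once and each fish left out. Chosen after the data were seen were scaling to the genes outside the 50 or to the total without gene 1, eBayes without trend, and gene 1 left out of the members, with the total kept or reduced.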

Additional observations from a re-analysis of the deposited data

Results flagged for a closer look

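In 44 groups of 4 fish (the named genes, each in every group, and the summed share), 3 held a fish that stood apart from the other 3 by a gap larger than Dixon's 95% limit, and chance gives about 1 in 20 groups. Old fasted replicate 1 had gene 2 at 6.58% of the fish-gene total, with the other 3 old fasted fish between 7.00% and 7.07%. Young fasted replicate 4 had gene 19 at 0.306%, with the others between 0.417% and 0.437%. Young refed replicate 3 had gene 19 at 0.418%, with the others between 0.281% and 0.294%. Old fasted replicate 1 stayed above every old refed fish for gene 2, and both fish of gene 19 stayed below every old fish of their feeding state.

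The fasting effect on the log2 share differed between old and young fish, by limma's interaction term, for 5 members. The difference, old minus young, was 1.26 for gene 15 (adjusted p = 0.0402), 1.25 for gene 28 (adjusted p = 0.0242), 1.14 for gene 43 (adjusted p = 0.0308), 0.93 for gene 45 (adjusted p = 0.0461) and 0.60 for gene 48 (adjusted p = 0.0308). The 5 calls became 0 without old fasted replicate 1 or young fasted replicate 1. All 5 belong to the 29 members lower in old refed than in young refed fish. The interaction contains the refed age difference of the same fish with its sign turned. This overlap therefore follows in part from how the terms are built and is no separate result. Genes 28, 43, 45 and 48 also lay outside the 50 most abundant genes of old refed fish, so the choice of members favours these calls.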

How the results depend on the processing

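Summed shares kept their direction under every alternative run except 1. With gene 1 left out of the members but kept in the total, the young feeding difference reversed to -3.84 points, and the refed age difference was -22.8 and the difference of shifts 12.3. Leaving out each fish gave 3.02 to 6.21 points for young fasted minus refed, 8.56 to 10.5 for old fasted minus refed, -11.8 to -10.1 for old minus young fasted, -17.5 to -14.3 for old minus young refed fish and 3.17 to 6.36 for the difference of the feeding shifts. Without gene 1 in members and total they were 1.39 (young feeding), -13.0 (fasted ages), -22.3 (refed ages) and 9.29 (difference of shifts). For the 10 first genes they were -8.04 (fasted ages), -8.48 (refed ages) and 0.444 (difference of shifts).

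Counts of called members moved with the scale. Deposited values gave 1 lower in the young feeding comparison, 25 higher and 0 lower in the old one, 1 higher in each age comparison and 9 higher for the interaction. The shares of all genes called on the deposited scale are given in the Results. The ERCC scale gave 0 higher and 36 lower in young fish, beside 525 and 11578 of all 18606 genes. In old fish it gave 2 higher and 8 lower, beside 178 and 13916. It gave 8 higher between fasted ages and 2 between refed ages, beside 6777 and 6571. Gene 3 in young fish turned to -0.22 there, where the median of all genes was -0.60. Relative to genes outside the 50 they were 1 lower (young), 0 lower (old), 1 higher (fasted ages) and 2 higher (refed ages). Of all genes, 4589, 3596, 887 and 3392 were so called. Relative to the total without gene 1 they were 4 higher and 2 lower (young) and 2 lower (interaction). The numbers over all genes were 3665, 4274 and 3244. At an adjusted p under 0.01 they were 0 higher and 2 lower (young), 3 higher and 0 lower (old), 7 higher and 9 lower (fasted ages), 7 higher and 29 lower (refed ages) and 0 (interaction). How many of all genes passed that threshold was not counted, so these counts cannot be set against the whole table. Members ranked on the other fish gave 2 lower (young), beside 29.0% of all genes. Lower calls in old fish numbered 2 with a pseudocount of 5, 3 with the filter, 3 without trend and 0 in the fit of 8 fish. Interaction calls numbered 11 with the filter. In the same order, the numbers over all genes were 8633, 5079 (of 9319), 8277, 7561 and 343 (of 9319). In these counts the cause was not tested.

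Leaving out each fish gave 0 to 2 higher and 3 to 8 lower (young feeding), 9 to 18 and 0 to 3 (old feeding), 10 to 12 and 13 to 20 (fasted ages), 8 to 14 and 29 to 29 (refed ages) and 0 to 12 and 0 to 0 (interaction). The 8 lower young calls were without young fasted replicate 4. Over all genes these fits gave 1716 to 2565 higher and 4694 to 5618 lower (young feeding). For old feeding it was 342 to 503 and 6486 to 8746. Fasted ages gave 6167 to 8585 and 103 to 155, and refed ages 11886 to 13734 and 287 to 408. The interaction gave 56 to 450 and 140 to 2038.

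Same-numbered fish did not deviate together (2 of 16 pairs correlated above 0.1, range -0.248 to 0.147, and 2 correlated best with their own number), so the numbers do not pair the fish. With the replicate block, 1 member was called higher in young fish and 3 for the interaction, beside 2284 and 197 of all genes.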
